A study of Homo sapiens with 16 samples.

Results

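The neighbourhood of MYC on chromosome 8q24 was taken as chr8:127900000-129300000 of hg19, a window of 1.4 Mb that also holds POU5F1B and PVT1, and every γ-tubulin peak that overlapped it was kept. The members were thus chosen by peak position alone. This gave 101 of the 2962 peaks in the 4 deposited lists, and all 101 were listed for MCF10A cells 2 h after release. The peaks came from ChIP-seq, in which DNA is recovered with an antibody against the protein that holds it, and places richer in reads than the control are listed as peaks. Cell populations of the non-tumorigenic breast epithelial cell line MCF10A were of 2 kinds, MCF10A cells with no stated transfection and γTubulinsh-MCF10A cells, which were stably transfected with γTubulin shRNA, kept under Zeocin and still hold part of their γ-tubulin. Both were arrested at early S-phase by a double block with thymidine, and harvested 1 h or 2 h after its removal, which gave 4 conditions with 2 γ-tubulin ChIP libraries and 2 whole cell extract libraries each, 16 in all. Each list pools both ChIP libraries of its condition. The values below therefore carry no SD and no test between conditions, and the window was chosen with its peak count known.

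γ-Tubulin is best known for nucleating microtubules at the centrosome, and it is also found on chromatin. MYC encodes a transcription factor that drives genes of growth and cell division. PVT1, a long non-coding RNA gene, lies downstream of MYC and is often gained together with it in tumours. POU5F1B, upstream of MYC, is a retrogene of the pluripotency factor gene POU5F1. In the RefSeq gene table of GRCh38.p14, used here for gene order alone, CASC11 and LOC105375754 are the 2 genes wholly between POU5F1B and MYC. None lies wholly between MYC and PVT1, and 7 lie inside PVT1, among them MIR1204, MIR1205, MIR1206 and MIR1207. Genes that reach past either end of these stretches were not counted, and genes upstream of POU5F1B were not listed. A gain of 8q24 with MYC is known for MCF10A cells. Copy number was not measured here.

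The 4 conditions differed in whether the window held any peak. MCF10A cells at 2 h had 101 peaks there, which covered 22461 bp. Both 1 h lists, MCF10A and γTubulinsh-MCF10A, and the γTubulinsh-MCF10A list at 2 h had 0 peaks there, while they held 1035, 288 and 79 peaks outside mtDNA. In MCF10A cells at 2 h the window took 6.60% of the 1531 nuclear peaks and 55.8% of the 181 peaks of chromosome 8. On chromosome 8 the other conditions had 61, 7 and 3 peaks, in the order just given, none of them in the window.

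**Figure D1:**
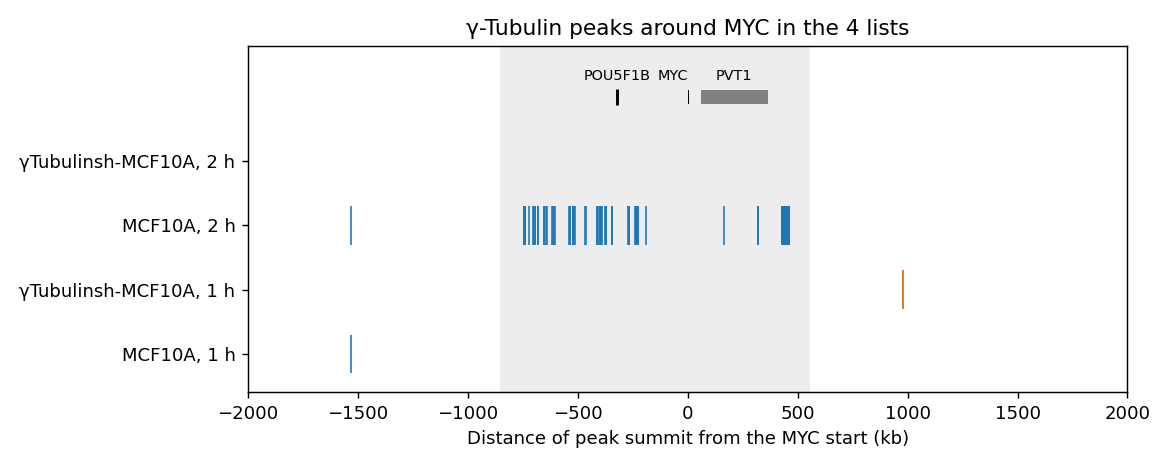
Each tick is the summit of a γ-tubulin peak on chromosome 8, plotted by its distance from the MYC start in kb, with 1 row for each of the 4 conditions (MCF10A in blue, γTubulinsh-MCF10A in orange) and the 1.4 Mb window shaded in grey. All 101 ticks inside the window belong to MCF10A cells at 2 h.

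The nearest peaks outside the window lay well away from it. On the upstream side it was a peak of both MCF10A lists, chr8:127215665-127215775 at 1 h (fold enrichment 3.50, score 113) and chr8:127215660-127215780 at 2 h (fold enrichment 4.17, score 141), 0.684 Mb from the window. On the downstream side it was a peak of γTubulinsh-MCF10A cells at 1 h, chr8:129729494-129729626, with a fold enrichment of 3.16 and the score 85, at a distance of 0.429 Mb. The first and last peaks inside were chr8:128003899-128004040 (fold enrichment 2.98, score 52) and chr8:129209836-129210624 (fold enrichment 2.38, score 68). Between the window's ends and these peaks, 104 kb upstream and 89.4 kb downstream were empty. Here the fold enrichment is the authors' ratio of ChIP reads at the summit to the local control background, and the score is 10 times the −log10 q-value.

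No peak touched MYC or POU5F1B. Upstream of POU5F1B lay 50 peaks, between POU5F1B and MYC 13, within PVT1 3 and downstream of PVT1 35. MYC sat in the longest stretch without a peak, 351 kb from 128560163 to 128911495, or 25.1% of the window, which also took in the first part of PVT1. Its nearest upstream peak, chr8:128560004-128560162 (fold enrichment 2.50, score 36), ended 188 kb before the MYC start. The nearest downstream peak, chr8:128911496-128911633 (fold enrichment 2.75, score 60), began 158 kb after the MYC end and lay inside PVT1. POU5F1B had closer neighbours, with the end of chr8:128403594-128403733 (fold enrichment 2.29, score 35) at 24.3 kb upstream and the start of chr8:128477155-128477295 (fold enrichment 2.37, score 33) at 49.2 kb downstream. Gene bounds were approximate, and a peak over an exon or a promoter was not looked for in an annotation of hg19.

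The other peaks within PVT1 lay side by side in its last part. They were chr8:129065932-129066096 (fold enrichment 2.67, score 54) and chr8:129068081-129068201 (fold enrichment 2.86, score 52), 1984 bp apart. All 3 peaks of PVT1 were short, 121 to 165 bp, and covered 424 bp together. Past the end of PVT1, 61.3 kb were free of peaks before the next one.

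Peaks less than 100 kb apart formed 4 runs. The upstream run had 63 peaks over 556 kb, from 128003899 to 128560162, on both sides of POU5F1B. The 3 peaks of PVT1 made up a single peak and a pair. The downstream run had 35 peaks within 35.8 kb, from 129174786 to 129210624. One peak followed another every 8.83 kb on average in the upstream run and every 1.02 kb in the downstream run. Accordingly, peaks covered 2.47% of the upstream run and 23.2% of the downstream run.

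Spacing within the runs was uneven. Over all 100 gaps between neighbouring peaks the median was 1082 bp, the shortest gap was 43 bp and 48 gaps were under 1 kb. In the upstream run the median gap was 2075 bp, with a range of 43 to 73421 bp, and 23 of 62 gaps were under 1 kb. The longest of these gaps spanned POU5F1B, from 128403734 to 128477154, and the next, of 64.3 kb, ran from 128142744 to 128207039. In the downstream run the median was 300.5 bp, the longest gap was 4448 bp and 25 of 34 gaps were under 1 kb.

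**Figure D2:**
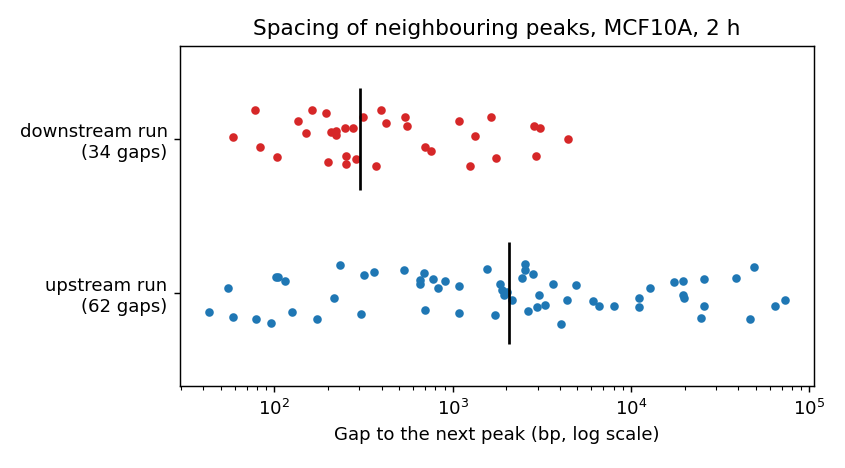
Each point is the gap in bp, on a log scale, between a peak and the next one in the upstream run (blue, 62 gaps) or the downstream run (red, 34 gaps), with a black line at the median; vertical scatter has no meaning. The medians are 2075 bp and 300.5 bp, and the gaps of the upstream run reach 73421 bp.

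The 101 peaks had low fold enrichments and scores for their list, while their lengths were close to those of its other peaks. Their length had a median of 175 bp and ranged from 120 bp, the shortest of the list, to 789 bp. Of the 101 peaks, 37 reached 200 bp and 4 reached 400 bp. The longest were the last peak of the downstream run, chr8:129209836-129210624 (789 bp), and chr8:128047988-128048775 (788 bp) and chr8:128347177-128347848 (672 bp) of the upstream run. The fold enrichment had a median of 2.52 (range 1.73 to 4.39), and the score a median of 52 (range 16 to 122). Among the other 1430 nuclear peaks of MCF10A cells at 2 h, the medians were 183 bp, 3.95 and 99.5. A score under 85, the median of the 4 pooled lists, was found for 93 of the 101 peaks (92.1%) and for 582 of the 1430 others (40.7%). Neighbouring peaks share libraries and local background, so these differences were not tested.

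The 5 highest scores came from both runs. In the downstream run these were chr8:129189228-129189445 (score 122, fold enrichment 2.57), chr8:129178713-129178872 (score 108, fold enrichment 2.64) and chr8:129205336-129205514 (score 96, fold enrichment 2.72). In the upstream run they were chr8:128005648-128005886 (score 116, fold enrichment 4.39) and chr8:128047988-128048775 (score 109, fold enrichment 3.71). Among these 5 peaks, the fold enrichments were thus lower in the downstream run than in the upstream run. All 12 peaks with a fold enrichment over 3 belonged to the upstream run, and all 8 with a fold enrichment under 2 to the downstream run.

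**Figure D3:**
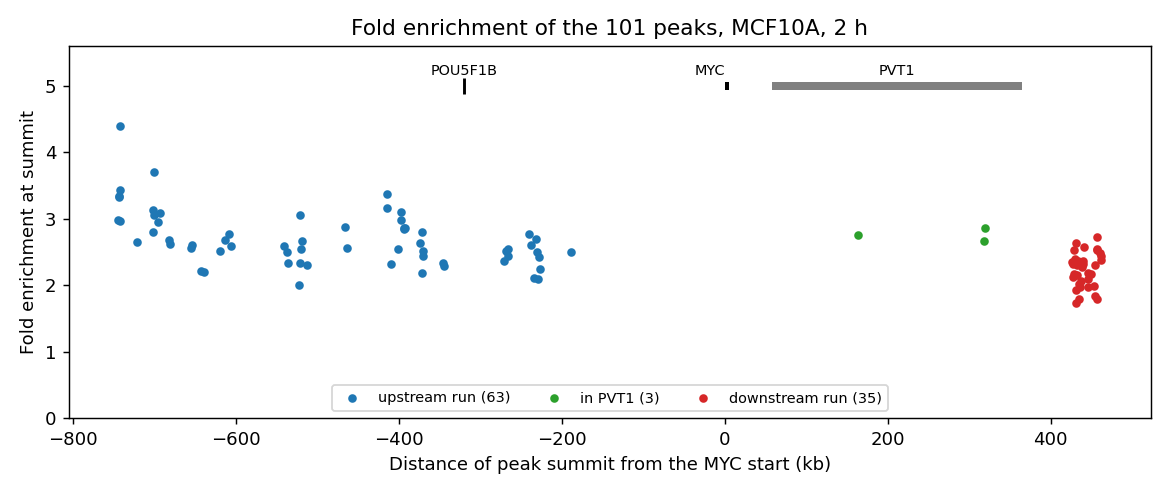
Fold enrichment at the summit (authors' ratio of ChIP to control) of the 101 peaks (MCF10A, 2 h), against the distance of the summit from the MYC start in kb, for the upstream run (blue), the peaks in PVT1 (green) and the downstream run (red). The highest value, 4.39, is at the upstream edge, and the downstream run lies between 1.73 and 2.72.

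Along the upstream run, peaks less than 10 kb apart fell into 16 groups. The first group, 744 kb upstream of MYC, held 6 peaks from 128003899 to 128006549, and 50.2% of this stretch was under a peak. Its fold enrichments in order were 2.98, 3.33, 3.34, 4.39, 3.44 and 2.97, and it held 3 of the 5 highest of the window. A second group of 6 peaks, from 128046146 to 128055575, had fold enrichments between 2.80 and 3.71. From 128066665 to 128142743, 10 peaks in 4 groups stayed below 3, with the lowest, 2.20, at chr8:128108978-128109109.

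Further on, the groups became larger or smaller without a steady change in fold enrichment. A set of 3 peaks from 128207040 to 128212440 (fold enrichment 2.34 to 2.60) were followed by 6 from 128225194 to 128235706 (2.00 to 3.05). The largest group, 9 peaks from 128333457 to 128356237, started with fold enrichments of 3.16 and 3.37 and contained the 672 bp peak. It was followed by 5 peaks from 128373731 to 128378479 (2.19 to 2.80) and, last before POU5F1B, by a pair from 128403015 to 128403733 (2.29 and 2.33). Downstream of POU5F1B came 4 peaks from 128477155 to 128482695 (2.37 to 2.55), 8 peaks from 128508300 to 128521292 (2.10 to 2.77) and the single peak nearest to MYC. None of these 13 peaks between POU5F1B and MYC was longer than 208 bp, and their median score was 36, compared with 52 for the 50 peaks upstream of POU5F1B.

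The fold enrichment mixes the reads of the ChIP and of the control, so both were solved for at each summit from the fold enrichment and the p-value. The ChIP pileup counts the reads that cover the summit, and the control background counts those predicted there from the whole cell extract. The latter is given relative to the genome background, the lowest control background of the list (1.69 reads). At the 101 summits the pileup ranged from 31 to 102 reads with a median of 50, and the control background from 5.25 to 26.2 times the genome background with a median of 11.5. For the other 1430 nuclear peaks the medians were 43 reads and 5.76 times. At every summit of the window the control background was therefore at least 5.25 times the genome background. By default it is the largest of several local and genome estimates, so the whole cell extract reads at the summit itself may be fewer. The part of the control background in the peak calls was not tested.

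The 2 runs stood at separate levels of pileup and of control background. In the upstream run the pileup was 31 to 58 reads (median 45) and the control background 5.25 to 14.5 times (median 9.92). In the downstream run the pileup was 66 to 102 reads (median 78) and the control background 15.9 to 26.2 times (median 20.9). Neither range overlapped the other. The 3 peaks of PVT1 had pileups of 50, 49 and 42 reads and control backgrounds of 10.3, 10.5 and 8.28 times, all within the range of the upstream run. From the upstream to the downstream run the median control background was 2.11 times as high, the median pileup 1.73 times and the median fold enrichment 0.870 times. The excess of ChIP reads over the control background was 28.7 reads (median) in the upstream and 44.0 in the downstream run.

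**Figure D4:**
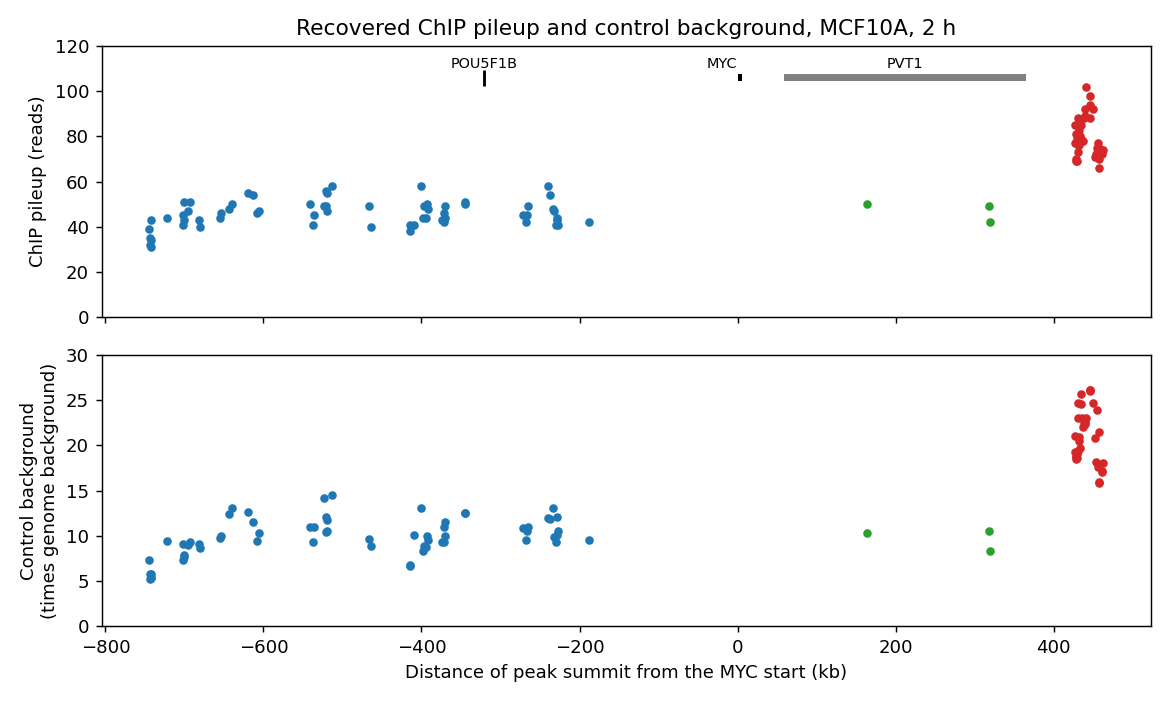
Recovered ChIP pileup in reads (top) and control background in multiples of the genome background (bottom) at the summits of the 101 peaks (MCF10A, 2 h), against the distance from the MYC start in kb, with colours for the upstream run (blue), PVT1 (green) and the downstream run (red). Both values lie higher in the downstream run (66 to 102 reads, 15.9 to 26.2 times) than anywhere in the upstream run (31 to 58 reads, 5.25 to 14.5 times).

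The control background also changed within the runs. It was lowest at the upstream edge, where the first group had 7.34, 5.25, 5.76, 5.32, 5.42 and 5.77 times the genome background, and pileups of only 31 to 43 reads. In the group from 128046146 it was 7.34 to 9.34 times, and in the pair from 128105161 to 128109109 it was 12.5 and 13.1 times. The highest value of the upstream run, 14.5 times, was at chr8:128235575-128235706, where the fold enrichment was 2.31. It was low again, at 6.70 and 6.77 times, at the pair of peaks from 128333457 to 128334044, whose fold enrichments of 3.16 and 3.37 were among the higher ones. In the first group and in this pair, a low control background thus went with some of the higher fold enrichments. The fold enrichment has the control background in its denominator, so part of this relation comes with the ratio.

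In the downstream run the control background was 21.0 times at the first peak and between 18.5 and 19.3 times at the next 7. It was highest, at 26.1, 26.0 and 26.2 times, at 3 neighbouring peaks from 129193894 to 129194955, with pileups of 98, 88 and 94 reads. At the last 5 peaks, from 129205336 to the end, it was 15.9 to 18.0 times, with pileups of 70 to 75 reads. The highest pileup of the window, 102 reads, was at chr8:129189228-129189445, the peak with the highest score. The lowest fold enrichment and score, 1.73 and 16, were at chr8:129179095-129179318, where the control background was 24.6 times and the pileup 73 reads.

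Across the 101 peaks, which share the same libraries, the pileup followed the control background (Pearson's r = 0.945, Spearman's ρ = 0.901). Within the upstream run (63 peaks) r was 0.755 and ρ 0.703, and within the downstream run (35 peaks) they were 0.587 and 0.595. Between control background and fold enrichment r was −0.732 over all 101 peaks, −0.804 in the upstream and −0.666 in the downstream run. A peak is listed only if its pileup exceeds its control background by enough to pass the q-value, and the fold enrichment has the control background in its denominator, so part of these relations comes with the calling.

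Since the lists of the other conditions held no peak in the window, the overlap of its 101 peaks with them was 0 for each list, which follows from those counts and adds nothing to them. An overlap of at least 1 bp with the MCF10A list at 1 h was found for 44.2% of all nuclear peaks in the MCF10A list at 2 h. For γTubulinsh-MCF10A cells the share was 13.1% at 1 h and 3.27% at 2 h, and for the 3 lists together it was 46.4%. Outside the window, 49.7% of the 1430 nuclear peaks overlapped a peak of another list. The share was 35.9% among the 891 of them with scores between 16 and 122, the range of the window, and 59.2% among the 510 with a control background in the range of the window. Reads were not analysed, so it is not known how far the ChIP of the other conditions was from the threshold within the window.

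Most clusters of many peaks elsewhere had at least 1 peak that overlapped a peak of another condition. Joining peaks less than 100 kb apart gave 259 clusters of MCF10A cells at 2 h, and 35 of them had at least 10 peaks. By number of peaks, the upstream run was the third and the downstream run the twelfth. In 3 of the 35 clusters no peak overlapped one of another list, and these were both runs of the MYC neighbourhood and a cluster of 14 peaks on chromosome 22, chr22:16848269-16862476. For both runs this again follows from the other lists having no peak in the window. In the remaining 32 the share was between 7.69% and 86.7%. Over all 33 clusters elsewhere the median share was 42.9%, compared with 46.4% of all nuclear peaks of MCF10A cells at 2 h. On the same chromosome, 2 clusters beside the centromere also had a high control background. In chr8:43793704-43838737 (33 peaks, median control background 17.8 times, median fold enrichment 2.95) 20 peaks overlapped one of another list. In chr8:46838988-46868639 (32 peaks, 27.0 times, 2.66) 19 did. Their median scores were 187 and 154.5, compared with 47 and 68 in the upstream and downstream runs. Some clusters on other chromosomes came closer to the downstream run. In chr7:61967188-62022706 the median control background was 25.2 times, the median fold enrichment 2.27, the median score 55 and the share with an overlap 30.8%. These were 26.2 times, 2.14, 56 and 23.1% in chr19:27732054-27899195, and 24.1 times, 2.31, 76 and 7.69% in chr18:18511040-18520035. In chrX:58561323-58581924 they were 32.7 times, 2.07, 68 and 57.7%.

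**Figure D5:**
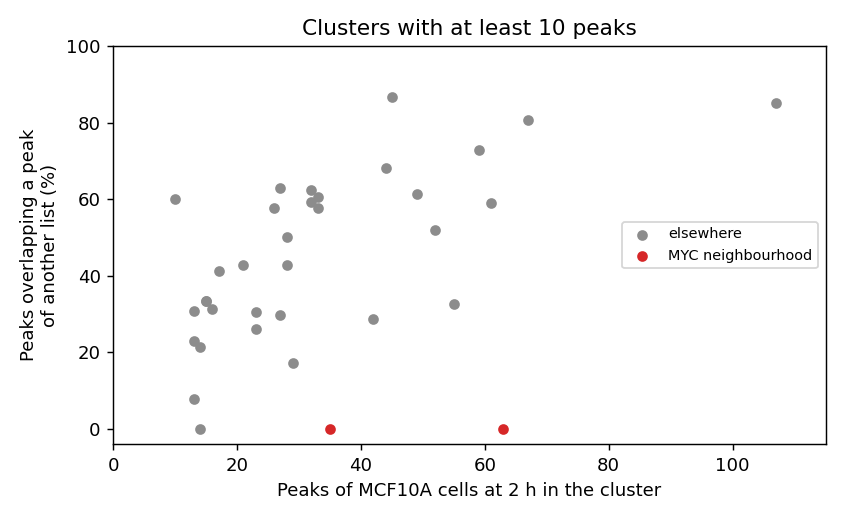
Each point is a cluster with at least 10 nuclear peaks of MCF10A cells at 2 h, by its number of peaks and the percentage of them that overlap a peak of any other condition by at least 1 bp. The 2 runs of the MYC neighbourhood (red, 63 and 35 peaks) are at 0 because the other lists have no peak there, and so is 1 of the 33 clusters elsewhere (grey).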

How the data were processed

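γ-Tubulin ChIP and whole cell extract DNA of 4 conditions (16 libraries) was sequenced on the Ion Proton. Per the labels and methods, the authors mapped reads to hg19 with Bowtie 1.0.0, keeping unique positions, and used MACS2 2.1.1. The deposited lists pool 2 ChIP libraries each and give the authors' fold enrichment (a ratio with 1 added to both terms), −log10 p-value and −log10 q-value, score (the −log10 q-value times 10, without decimals) and summit. The methods describe a differential tool that keeps regions from 200 bp, whereas the files look like calls against a control, with peaks from 106 bp.

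Members are peaks that overlap chr8:127900000-129300000, counted from 1. Gene bounds are the approximate hg19 ones that came with the window. Peaks named are the 5 highest by score and by fold enrichment, the 3 longest, the ends of runs and the nearest to each gene; others were added after their values were seen. The window and settings were chosen with earlier results of these data known.

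The lists give no depth. Pileup and control background were solved for as a whole number of reads and a Poisson mean under the formulas of MACS2, and returned the listed −log10 p-value within 0.000268 in the 3 lists solved (all but γTubulinsh-MCF10A at 2 h). On peaks simulated with the same formulas 100% of pileups were returned, which checks the solving and not whether the deposited values follow these formulas. The control background is by default the largest of several local and genome estimates. By the genome background per bp of the shortest peak, the ChIP reads kept at 1 h in MCF10A and γTubulinsh-MCF10A cells were 0.901 and 0.858 of those in MCF10A cells at 2 h. The work was done in Python 3.11.15 (scipy 1.17.1, pandas 2.3.3, numpy 2.4.6, matplotlib 3.10.9). Alternatives were other limits on score and length, merging, and other bounds, overlaps and genome backgrounds.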

Additional observations from a re-analysis of the deposited data

How the results depend on the processing

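No paired analysis was possible because the libraries of a condition are pooled in 1 list, and for the same reason no replicate was left out. For the 3 lists with 0 peaks in the window, only a wider window could change that number. Widened by 500000 bp on each side, it held 1 peak of γTubulinsh-MCF10A cells at 1 h and 0 of the other lists. In MCF10A cells at 2 h the number fell from 101 to 8 when the score had to reach 85, the pooled median, and to 0 when it had to reach 132, the pooled 75th percentile, and the bases under peaks fell from 22461 to 2111 and 0. The share of nuclear peaks went from 6.60% to 0.935% and 0%. At 200 bp or longer, 37 peaks and 12587 bp were left, and at 400 bp or longer, 4 peaks and 2766 bp. Merging within 1000 bp gave 53 peaks, and joining within 100000 bp gave 4. Spacing depended on how it was counted, with a median of 1327.5 bp from summit to summit and 3474.5 bp between peaks merged within 1000 bp, compared with 1081.5 bp between peak edges. With the 5th percentile of the control background as the genome background, the median control background was 10.4 times. After merging within 1000 bp the share of nuclear peaks was 7.76%, compared with 6.60% as reported. The remaining alternatives that could change a value left their values within 1.5 times for counts or 1.1 times for medians. Depth limits the comparison of conditions, since a peak that is missing from a list may be below its threshold.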

Other observations

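The control background was also read at 2 sites outside the window, those of the nearest peaks on each side. At the peak 0.684 Mb upstream it was 11.5 times the genome background in MCF10A cells at 1 h (pileup 59 reads) and 7.34 times in the same cells at 2 h (55 reads). At the peak 0.429 Mb downstream, in γTubulinsh-MCF10A cells at 1 h, it was 13.5 times (57 reads). Within the window the control background of the other conditions is not known, since they list no peak there.

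Both lists at 1 h contained peaks at control backgrounds of 5.25 to 26.2 times the genome background, the range of the window. In MCF10A cells at 1 h these were 476 nuclear peaks with a median fold enrichment of 3.20, and the γTubulinsh-MCF10A list had 125 with a median of 2.87. The median of the 101 peaks in the MYC neighbourhood was lower, 2.52, and that of the 510 other peaks of MCF10A cells at 2 h in this range was 3.31. Whether a region of the same fold enrichment would have been listed at 1 h was not tested. The list of γTubulinsh-MCF10A cells at 2 h was not solved for the control background.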
